A study of Mus musculus with 8 samples.

Results

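The mitochondrial ribosomal protein genes are 78 of the 21938 protein-coding genes of the mouse annotation (GENCODE M21, genome build mm10). They were chosen by symbol: every gene whose name begins with Mrpl or Mrps and goes on with a number was taken. By the present assignment of the proteins, 51 of the genes encode large subunit proteins and 26 small subunit proteins. The last gene, Mrps36, carries the name but its product is now placed in the 2-oxoglutarate dehydrogenase complex.

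The mitochondrial ribosome is built from proteins that are all encoded in the nucleus and from RNAs encoded in mitochondrial DNA. It translates the few mitochondrial messages, which code for core subunits of the respiratory chain and of ATP synthase. The small subunit binds and decodes the message, and the large subunit joins the amino acids. Some of its proteins have counterparts in bacterial ribosomes and the others arose in mitochondria. Leukaemic cells of the myeloid lineage are known for their need of mitochondrial translation. Acetylation of histone H3 at lysine 9 (H3K9ac) is a mark of active promoters and lies mostly just downstream of the start site.

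H3K9ac was measured by ChIP-seq in frozen bone marrow cells of C57BL/6 mice, and 6 lists of peaks were used. The heading of the paper's figure on these data names cells positive for the surface marker c-kit. The methods of the paper give frozen bone marrow cells without such a selection. Every mouse carried the *NUP98-HOXD13* transgene, a model of myelodysplastic syndrome that can progress to acute myeloid leukaemia, and the mice were analysed when they showed signs of overt leukaemia or were in reduced health. The groups were *GFI1-36S*, *GFI1-36N* and *GFI1-KD*, each given vehicle (DMSO) or 20 mg/kg curcumin, a plant polyphenol, weekly by intraperitoneal injection. *GFI1* encodes a transcriptional repressor of blood cell development, *-36S* is its common form, *-36N* a variant with asparagine in place of serine, and *-KD* a line with reduced expression. There was 1 library per group, so no value has a replicate error and no difference was tested. The labels give no age or number of mice and do not say whether the alleles were heterozygous or homozygous. The names of the peak lists give the *GFI1-36N* vehicle list 1 knock-in allele and the *GFI1-36N* curcumin list a pair of them, so zygosity and treatment cannot be told apart in that genotype.

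The *GFI1-36S* curcumin library stood apart, and the treatment of this genotype is uncertain. The treatment written in the names of both *GFI1-36S* lists is the reverse of that in the sample labels. Groups here go by the labels, and exchanging the treatments turns the sign of every *GFI1-36S* difference. The list labelled *GFI1-36S* curcumin held 20354 peaks, against 30784 to 49213 in the other libraries, and 3 of its peaks lay on the Y chromosome, where the other libraries had 0. Of 10 fixed T cell markers, 9 had a promoter peak there (all but Cd8a, summed rank 449), against 1 to 5 elsewhere (summed rank 3.18 to 33.0). Of 10 neutrophil markers 0 had a peak, against 8 to 10 elsewhere (summed rank 169 to 328). The same library had a peak at 1 of 6 erythroid markers (3 to 6 elsewhere), at 2 of 7 progenitor markers (6 or 7 elsewhere) and at 0 of 6 B cell markers (1 to 3 elsewhere). The label of bone marrow therefore held for its myeloid markers in 5 libraries and not in this library. The part of these differences in the results on *GFI1-36S* was not tested. In mixed cells, a change in the mix and a change of the mark per cell cannot be told apart.

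For each gene the strongest peak within 1 kb of any annotated start site was taken. Strength was the fold enrichment written by the peak caller, that is fragments at the summit over the local background. Since these folds were not scaled between lists, the peaks were ranked among all coding genes with a promoter peak in the same list, from near 0 for the weakest to 100 for the strongest. A gene with no promoter peak was given rank 0. A change is the rank with curcumin minus the rank with vehicle, in rank points, and 10 points was the threshold of size. The number of fragments at each summit was worked out from the fold enrichment and the p-value of the peak, and gave each rank an exact Poisson 95% interval that covers counting error only. The members had a median of 79.0 to 165 fragments at the summit, and the median width of their rank interval was 20.2 to 33.4 points. Whether a difference lay beyond counting error is given gene by gene, as intervals that overlap or lie apart.

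Promoter sequences are shown for the members on which the results turn. Mrps14 and Mrpl47 ranked higher with curcumin in every genotype, Mrpl18 and Mrpl35 had about the highest and the lowest steady rank, Mrps15 had the largest difference, and Mrpl43 had no peak. Each run covers 250 bases before to 50 bases after the RefSeq start of the gene (GRCm38.p6, the assembly of mm10), 5′ to 3′ on the strand of the gene. Capitals mark matches to 5 motifs, searched on both strands: ACTTCCG of the ETS family, GCGCATGCG of NRF1, AAGATGGCG of YY1, CCAAT of NFY and TATAAA of the TATA box. None of the 5 motifs is contained in another.
Mrps14, chr1:160194965-160195264, plus strand: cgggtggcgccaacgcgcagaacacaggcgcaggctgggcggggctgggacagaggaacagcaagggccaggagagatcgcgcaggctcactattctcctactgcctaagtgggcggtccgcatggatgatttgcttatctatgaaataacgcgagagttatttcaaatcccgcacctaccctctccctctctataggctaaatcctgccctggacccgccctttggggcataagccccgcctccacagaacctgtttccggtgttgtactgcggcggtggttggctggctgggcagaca
Mrpl47, chr3:32736706-32737005, minus strand: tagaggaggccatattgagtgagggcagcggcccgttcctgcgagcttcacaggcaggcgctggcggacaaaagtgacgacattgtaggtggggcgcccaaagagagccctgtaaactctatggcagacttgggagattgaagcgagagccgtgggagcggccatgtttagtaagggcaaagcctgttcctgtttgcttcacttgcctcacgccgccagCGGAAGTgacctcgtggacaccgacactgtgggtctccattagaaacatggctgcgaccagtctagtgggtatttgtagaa
Mrpl18, chr17:12916042-12916341, minus strand: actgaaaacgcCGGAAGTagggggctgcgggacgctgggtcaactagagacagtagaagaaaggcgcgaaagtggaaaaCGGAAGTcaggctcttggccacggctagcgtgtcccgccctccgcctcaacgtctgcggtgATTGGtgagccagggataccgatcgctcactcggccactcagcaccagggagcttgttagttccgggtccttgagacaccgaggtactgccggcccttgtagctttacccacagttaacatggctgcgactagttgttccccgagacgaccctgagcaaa
Mrpl35, chr6:71823735-71824034, minus strand: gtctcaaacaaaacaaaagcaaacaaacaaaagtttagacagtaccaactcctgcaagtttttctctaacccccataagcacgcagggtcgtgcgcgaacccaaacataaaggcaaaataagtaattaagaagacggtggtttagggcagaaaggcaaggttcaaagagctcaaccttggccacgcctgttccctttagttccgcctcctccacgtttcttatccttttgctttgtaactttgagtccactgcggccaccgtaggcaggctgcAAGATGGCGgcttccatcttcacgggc
Mrps15, chr4:126046678-126046977, plus strand: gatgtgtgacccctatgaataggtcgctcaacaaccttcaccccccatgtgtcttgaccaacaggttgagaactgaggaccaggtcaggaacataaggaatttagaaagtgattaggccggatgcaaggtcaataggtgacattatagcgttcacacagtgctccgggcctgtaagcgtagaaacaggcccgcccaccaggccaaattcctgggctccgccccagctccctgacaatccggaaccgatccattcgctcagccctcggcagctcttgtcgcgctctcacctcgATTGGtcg
Mrpl43, chr19:45006393-45006692, minus strand: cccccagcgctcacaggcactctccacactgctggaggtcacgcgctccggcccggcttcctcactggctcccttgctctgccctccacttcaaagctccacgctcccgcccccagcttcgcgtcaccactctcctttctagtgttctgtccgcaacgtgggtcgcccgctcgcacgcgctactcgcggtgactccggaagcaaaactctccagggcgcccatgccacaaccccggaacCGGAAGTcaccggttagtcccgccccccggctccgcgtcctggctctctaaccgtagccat

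In these windows Mrpl18 held 2 ETS matches, 239 and 171 bases before the start, and 1 CCAAT match 110 bases before it. Mrpl47 held 1 ETS match 31 bases before the start and Mrpl43 1 at 11 bases before it. Mrpl35 held 1 YY1 match 23 bases after the start and Mrps15 1 CCAAT match 42 bases after it. The window of Mrps14 held 0 matches. For Mrpl18, Mrpl47 and Mrpl35 the start sites of the annotations differ. The most upstream GENCODE start lies just upstream of the printed window for Mrpl18 (12916345) and further upstream for Mrpl47 and Mrpl35.

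Over the family, 69 members had a promoter in the RefSeq table. The ETS motif was in 17 of them (24.6%), against 18.2% of the promoters of genes with a peak in all 6 libraries and 9.76% of all coding promoters. YY1 was in 8 (11.6%), against 4.36% and 2.25%. NRF1, a regulator of nuclear genes for mitochondrial proteins, matched in 7 (10.1%), against 5.01% and 2.74%. CCAAT was found in 27 (39.1%, against 43.5% and 42.1%) and the TATA box in 5 (7.25%, against 7.23% and 14.3%). The median GC content of the members was 58.0%, below the 61.7% of genes with a peak in all 6 and near the 57.0% of all promoters. Their ratio of observed to expected CpG was 0.818, against 0.796 and 0.586. These matches are a description of letters and not of binding.

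Nearly the whole family carried H3K9ac at its promoters in every library. In each of the 6 libraries 77 of 78 members (98.7%, exact 95% interval 93.1% to 100%) had a promoter peak, and they were the same 77. Among all coding genes the share with a peak was, with vehicle and curcumin, 51.9% and 44.3% (*GFI1-36S*), 51.7% and 53.8% (*GFI1-36N*), 53.6% and 50.6% (*GFI1-KD*). A peak in all 6 libraries was found at 9341 coding genes (42.6%).

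Mrpl43, a mitochondria-specific large subunit protein, was the gene without a peak (chr19:45004829-45006442, minus strand). The nearest peak to its start lay 16.8 to 16.9 kb away in the *GFI1-36S* and *GFI1-36N* libraries, 73.9 kb in *GFI1-KD* with vehicle and 74.1 kb with curcumin. It lay in a stretch with no peak at all, 187 to 312 kb long depending on the list, in which 7 or 8 coding genes start. How this stretch was treated in the filtering of the lists was not tested. As shown above, its promoter had a GC content of 66.3% and an ETS match.

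The members ranked in the middle of the promoters that carry the mark. Their median rank was 52.9 in the *GFI1-36S* vehicle library and 58.8 with curcumin. For the *GFI1-36N* pair it was 52.9 and 60, for *GFI1-KD* 51.6 and 52.3. All genes with a promoter peak have a median near 50 by construction, and the genes with a peak in all 6 libraries had 51.8 to 60. The members lay below the median of the genes that share their steady presence in 4 libraries. With vehicle they had 52.9 against 58.2 in *GFI1-36S*, 52.9 against 57.8 in *GFI1-36N* and 51.6 against 59.5 in *GFI1-KD*. In *GFI1-KD* with curcumin they had 52.3 against 57.0. The members lay at 60 like those genes in *GFI1-36N* with curcumin, and above them in *GFI1-36S* with curcumin (58.8 against 51.8).

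**Figure D1:**
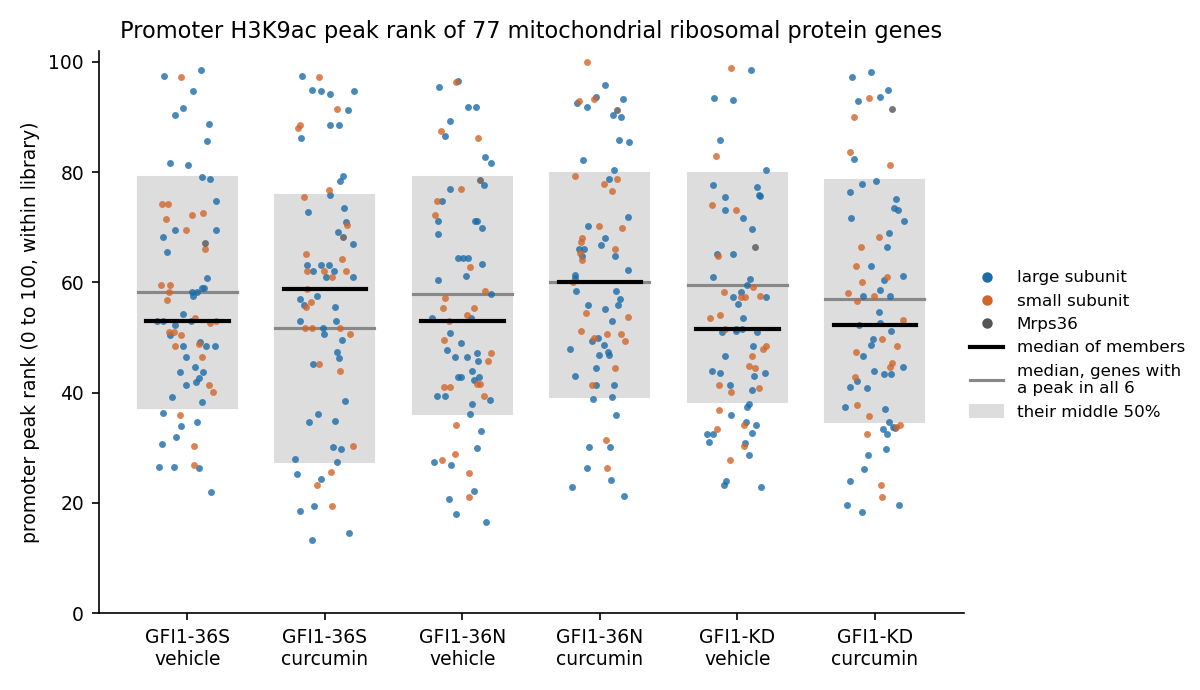
Promoter H3K9ac rank (vertical axis, 0 to 100 within a list) of the members in the 6 libraries, each point 1 gene (blue large subunit, orange small subunit, grey Mrps36). Black lines are the member medians, grey lines and boxes the median and middle 50% of genes with a peak in all 6 libraries. The medians lie between 51.6 and 60, and most members lie in the middle of the scale in each library.

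The members were spread narrowly around this middle. The mean rank over the 6 libraries was above 25 and at most 75 in 60 of 77 members (77.9%), against 61.4% of the genes with a peak in all 6. It was above 75 in 15 members (19.5%, against 26.9%) and at most 25 in 2 (2.60%, against 11.7%). Only 4 members (5.19%) stayed above rank 75 in all 6 libraries, against 14.2% of those genes. Above rank 50 in all 6 were 29 members (37.7%, against 38.4%).

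Genes of related function ranked higher or alike. The cytosolic ribosomal protein genes, which build the ribosome outside mitochondria, had median ranks of 75.1 to 90.8 in the 6 libraries. Subunits of oxidative phosphorylation encoded in the nucleus, the complexes that contain the products of the mitochondrial ribosome, had 62.7 to 70.5. The other genes of mitochondrial translation (tRNA synthetases, translation factors, assembly factors and ribosomal proteins with other names) had 50.9 to 60, close to the range of the members. The subunits were alike, with 51.4 to 57.8 for the large and 50 to 64.8 for the small subunit.

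**Figure D2:**
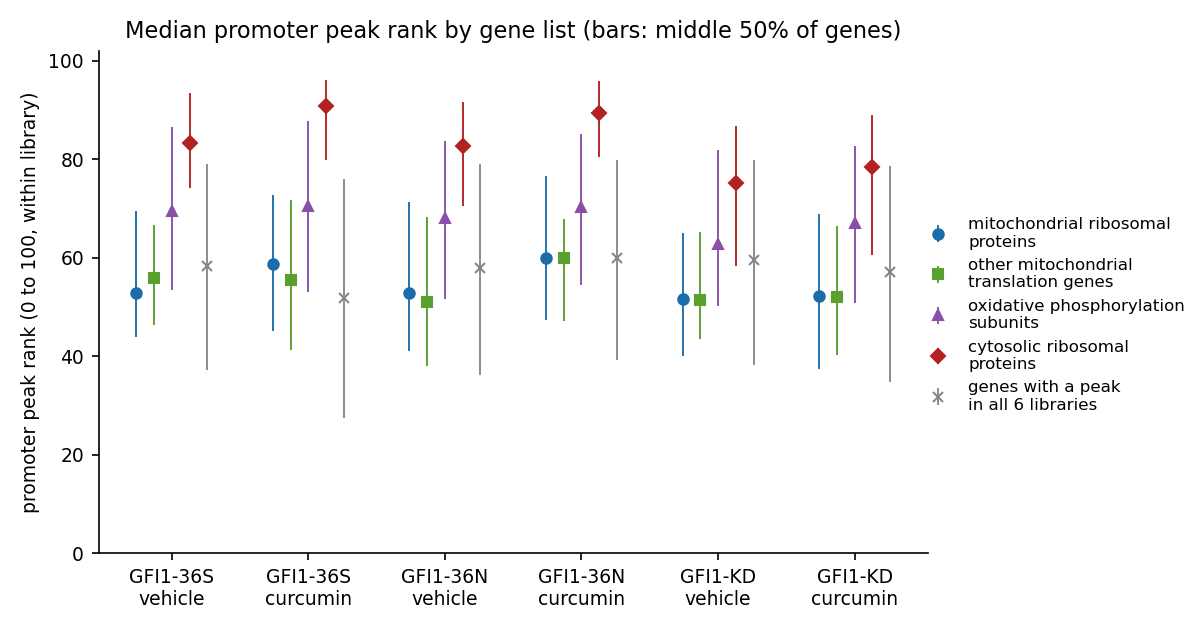
Median promoter H3K9ac rank (0 to 100 within a list) of the members, of 3 gene lists and of the genes with a peak in all 6 libraries, bars spanning the middle 50% of genes. Cytosolic ribosomal protein genes (75.1 to 90.8) and oxidative phosphorylation subunits (62.7 to 70.5) lie above the members (51.6 to 60) in each library, and other mitochondrial translation genes overlap them.

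The peaks were short and sat just inside the genes. The summit of the member peaks lay at a median of 157 to 178 bases downstream of the nearest start site, against 171 to 193 over all genes. It was within 500 bases of a start site for 96.1% to 97.4% of members, against 86.2% to 89.1% of genes. In a single library it lay downstream for 76.6% to 81.8% of members, against 77.4% to 79.3% of genes. Of the 77 members, 55 had the summit downstream in all 6 libraries and 11 upstream in all 6. A divergent coding gene within 1 kb was present for 15 of those 55 and for 10 of those 11. The same counts were not made over all genes, so they cannot be called particular to the members. Median peak width was 1694, 913, 1611, 1835, 1722 and 1438 bases in *GFI1-36S*, *GFI1-36N* and *GFI1-KD* with vehicle and curcumin in turn. Over all genes it was 1795, 1064, 1725, 1769, 1963 and 1541 bases, so the member peaks were narrower in 5 of 6 libraries.

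Sharing a promoter with a neighbour was common. A divergent coding gene started within 1 kb of 32 members (41%), against 19.9% of genes with a peak in all 6. For 33 members (42.3%, against 25.2%) the strongest peak reached within 1 kb of a start of another coding gene. Sharing in any of the 6 libraries was enough for this count. The height of a shared peak cannot be assigned to a single gene. The 33 include Mrps15, whose peak in *GFI1-36N* with curcumin lay in the wide stretch described below. Members counted as sharing a peak had median ranks of 56.0 to 66.7 in the 6 libraries, and members alone on their peak 46.0 to 54.8. In each library the former was higher, by the medians.

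The 4 members with the highest mean ranks were of this kind. Mrps18b, a small subunit protein of the bacterial type (chr17:35910379-35916389, minus strand), ranked at 97.2 with vehicle and 97.3 with curcumin in *GFI1-36S*. The *GFI1-36N* pair gave 96.4 and 93.3 and the *GFI1-KD* pair 98.8 and 93.4. Its start lies 177 bases from that of Ppp1r10, which encodes a regulatory subunit of protein phosphatase 1. Mrpl18, which binds 5S rRNA in its bacterial form (chr17:12911349-12916345, minus strand), ranked at 97.5 and 97.5, 95.4 and 92.5, and 93.5 and 97.2 in the same order. These ranks span 5.05 points, the smallest range among the members. The start of Tcp1, a subunit of the cytosolic chaperonin, is 16 bases away, and the summit lay on the Tcp1 side of the Mrpl18 start in all 6 libraries.

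Mrpl54, a mitochondria-specific large subunit protein next to Apba3 (chr10:81264713-81266934, minus strand, starts 26 bases apart), ranked at 91.6 and 94.7, 96.6 and 93.6, and 93.0 and 98.1. Mrpl48, described with the *GFI1-36S* pair, is the last of these. A high rank was also found without a shared peak. Mrpl3, a large subunit protein of the bacterial type chosen after its values were seen, ranked at 75.4 to 94.9 in the 6 libraries and is alone on its peak. Mrpl36, the homologue of the smallest bacterial large subunit protein, ranked between 71.6 and 95.7. It starts 29 bases from Ndufs6, a complex I subunit, but its strongest peak lay at its other start sites and did not reach the Ndufs6 promoter.

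At the other end Mrpl35, a large subunit protein of the bacterial type (chr6:71812997-71826969, minus strand), ranked at 21.9 with vehicle and 14.6 with curcumin in *GFI1-36S*, at 16.5 and 21.2 in the *GFI1-36N* libraries, at 22.9 and 19.6 in those of *GFI1-KD*. Its intervals overlapped throughout, the lowest reaching from 5.98 to 27.0 and the highest from 17.7 to 29.1. The fold enrichment at its summit was 6.61 to 11.6, from 39 to 84 fragments. Mrpl24 (13.3 to 26.5) and Mrpl39 (19.6 to 31.0) were next in mean rank. All 3 have no divergent coding partner and no other coding gene on the peak.

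A pair of members shares a single promoter. Mrpl46 of the large subunit (chr7:78775236-78783531, minus strand) and Mrps11 of the small subunit (chr7:78783119-78792989, plus strand) start 30 bases apart and lie on the same peak. In the *GFI1-36S* pair both ranked at 69.5 (vehicle) and 62.0 (curcumin). The values were 76.9 and 70.3 for *GFI1-36N*, 73.1 and 57.5 for *GFI1-KD*. It was lower with curcumin in every genotype, the changes being -7.59, -6.6 and -15.7 points. This is 1 measurement, although the counts of members given here include both genes. Both are among the 6 members at least 10 points lower in *GFI1-KD* and the 8 members lower in all 3 pairs.

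Promoter H3K9ac in the curcumin and vehicle libraries was then compared within each genotype. No member lost or gained its peak in any pair, which follows from the same members having a peak in every library. Of the 11608 coding genes with a peak in either *GFI1-36S* library, 1882 lost it with curcumin and 231 gained it. These counts were 221 and 689 of 12022 in *GFI1-36N*, and 801 and 142 of 11908 in *GFI1-KD*. In *GFI1-36N* members lay higher with curcumin more often than lower, as did all genes. In *GFI1-36S* and *GFI1-KD* the family was evenly divided, while only 30.9% and 37.1% of all genes were higher.

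In *GFI1-36N* 53 members (68.8%) ranked higher with curcumin, against 60.1% of all genes, and 24 lower, with a median change of 3.88 points (95% interval over the members 1.92 to 8.77). The median over all genes was 1.89. At least 10 points higher were 28 members (36.4%), against 19.3% of all genes, and at least 10 points lower 7 (9.09%), against 11.3%. The rank intervals of vehicle and curcumin lay apart for 5 members, all higher, and for 0 in the other direction. Over all genes this was so for 4.0% higher and 2.25% lower. Neutrophil markers had 9 peaks with vehicle and 9 with curcumin (summed rank 184 and 268), progenitor markers 7 and 6 (213 and 287) and erythroid markers 5 and 4 (68.8 and 111). The neutrophil sums include Csf3r, at 53.6 and 99.9, which lies in the unusual stretch around Mrps15 described below. The part of these differences was not tested. Zygosity by the list names and treatment cannot be told apart in this pair.

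The subunits differed in share. The 26 genes of the small subunit had a median change of 8.50 points (1.56 to 12.4) and 13 of them were at least 10 points higher, against 3.04 (-2.19 to 5.74) and 14 of 50 for the large subunit. These intervals overlap. The 17 small subunit genes with bacterial counterparts had 11.3 points (1.53 to 21.2). Other gene lists moved as well in this pair: the cytosolic ribosomal protein genes by a median of 5.56, the oxidative phosphorylation subunits by 5.46 and the other mitochondrial translation genes by 6.89 points.

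**Figure D3:**
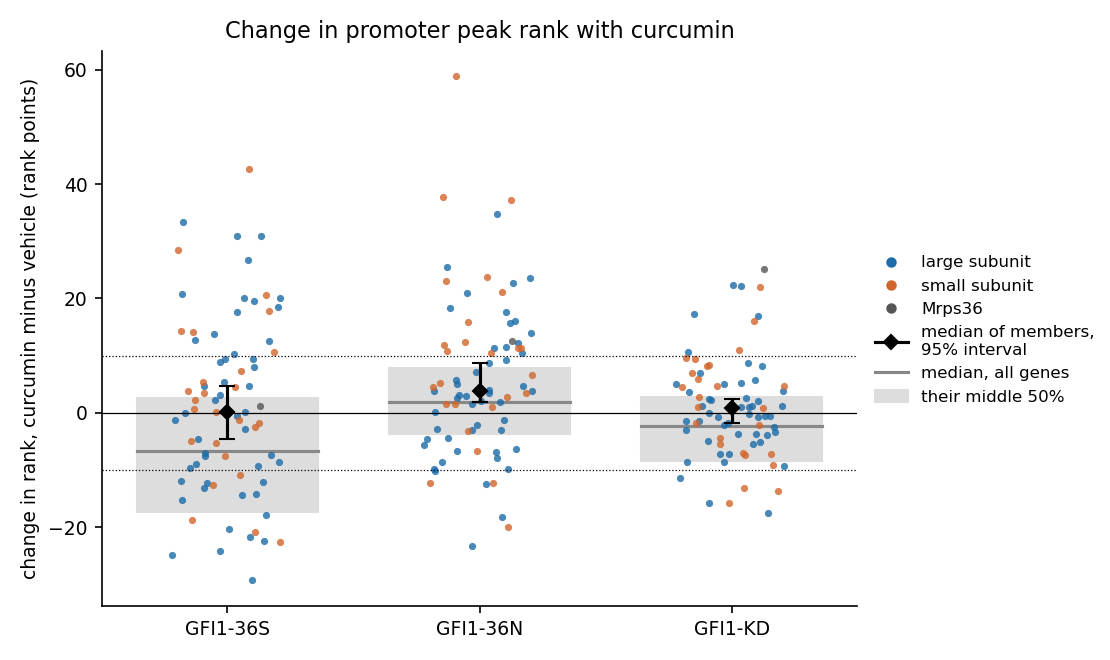
Change in promoter H3K9ac rank (curcumin minus vehicle, rank points) of the members in the 3 genotypes, each point 1 gene. Diamonds are the member medians with their 95% interval, grey lines and boxes the median and middle 50% of all coding genes, and dotted lines mark 10 points in each direction. The member medians are 0.177, 3.88 and 0.918, and the medians of all genes -6.61, 1.89 and -2.34 in *GFI1-36S*, *GFI1-36N* and *GFI1-KD*.

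Mrps28 had one of the largest differences in *GFI1-36N*. This small subunit protein of the bacterial type (ENSMUSG00000040269.5, chr3:8802146-8923918, minus strand) ranked at 27.7 (20.4 to 37.2) with vehicle and 65.4 (50.2 to 80.1) with curcumin. It ranked at 56.8 and 51.8 in *GFI1-36S*, and at 33.4 and 42.8 in *GFI1-KD*. The vehicle value of *GFI1-36N* is the lowest of the 6 and the curcumin value the highest. At its summit 85 and 144 fragments were counted in the *GFI1-36N* pair.

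Mrps35, a mitochondria-specific protein of the small subunit (chr6:147042764-147073991, plus strand), ranked at 41.6 and 78.8 in *GFI1-36N*. It was at 66.1 and 64.3 in the *GFI1-36S* pair, at 44.4 and 45.3 in the *GFI1-KD* pair. Here too the *GFI1-36N* libraries were the lowest and the highest. Mrpl51 of the large subunit, chosen after its values were seen, ranked at 44.0 and 78.8 in that genotype and between 55.5 and 60.5 in the other libraries. Mrpl19, likewise chosen, ranked at 18.0 and 38.9, with 28.6 to 36.2 elsewhere. For all 4 genes the vehicle library of *GFI1-36N* was the lowest of the 6. They were picked for a rise in this same pair with intervals apart, which favours a low vehicle value.

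Among the members that were lower in this genotype, Mrpl20 went from 64.5 to 41.3, Mrps23 from 86.1 to 66.1 and Mrpl4 from 71.2 to 53.0. The bacterial homologue of Mrpl20 binds the rRNA early in assembly of the large subunit, Mrpl4 is likewise of the bacterial type, and Mrps23 is specific to mitochondria. All 3 were also lower with curcumin in *GFI1-36S*, where they went from 48.4 to 24.3, from 72.6 to 51.8 and from 49.2 to 27.5. In *GFI1-KD* they ranked at 65.1 and 63.0, 59.2 and 81.2, and 60.6 and 66.4. In each of these comparisons for Mrpl20, Mrps23 and Mrpl4 the intervals of vehicle and curcumin overlapped.

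Mrps15 had the largest difference of all members and stood in an unusual region. This small subunit protein of the bacterial type (ENSMUSG00000028861.13, chr4:126046925-126055532, plus strand) ranked at 41 (vehicle) and 100 (curcumin) in the *GFI1-36N* pair. The *GFI1-36S* libraries had it at 48.4 and 51.8, those of *GFI1-KD* at 51.6 and 60. The fold enrichment was 57.1 in *GFI1-36N* with curcumin and 12.8 to 22.2 in the others, and 329 fragments were counted at its summit against 71 to 161. The peak was 15571 bases wide, against 1205 to 1448.

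In that library, a stretch of 1180 kb around the gene (chr4:125000001-126180000) was 86.3% covered by 586 peaks. The other libraries had 15 to 45 peaks there, covering 0.937% to 3.66%. It was the only stretch of 50 kb or more in any of the 6 libraries in which each bin of 10 kb was at least 50% covered. Of the 13 coding genes that start in it, 12 had a promoter peak in this library, at ranks of 98.5 to 100, and Grik3 had none in any library. Csf3r, the neighbour of Mrps15 and one of the neutrophil markers above, ranked at 99.9 there and at 0 to 66.4 elsewhere. The number of DNA copies of this stretch was not measured, so more H3K9ac per copy and more copies cannot be told apart. Without Mrps15 the median change in *GFI1-36N* was 3.87 points and 27 of 76 members (35.5%) were at least 10 points higher.

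**Figure D4:**
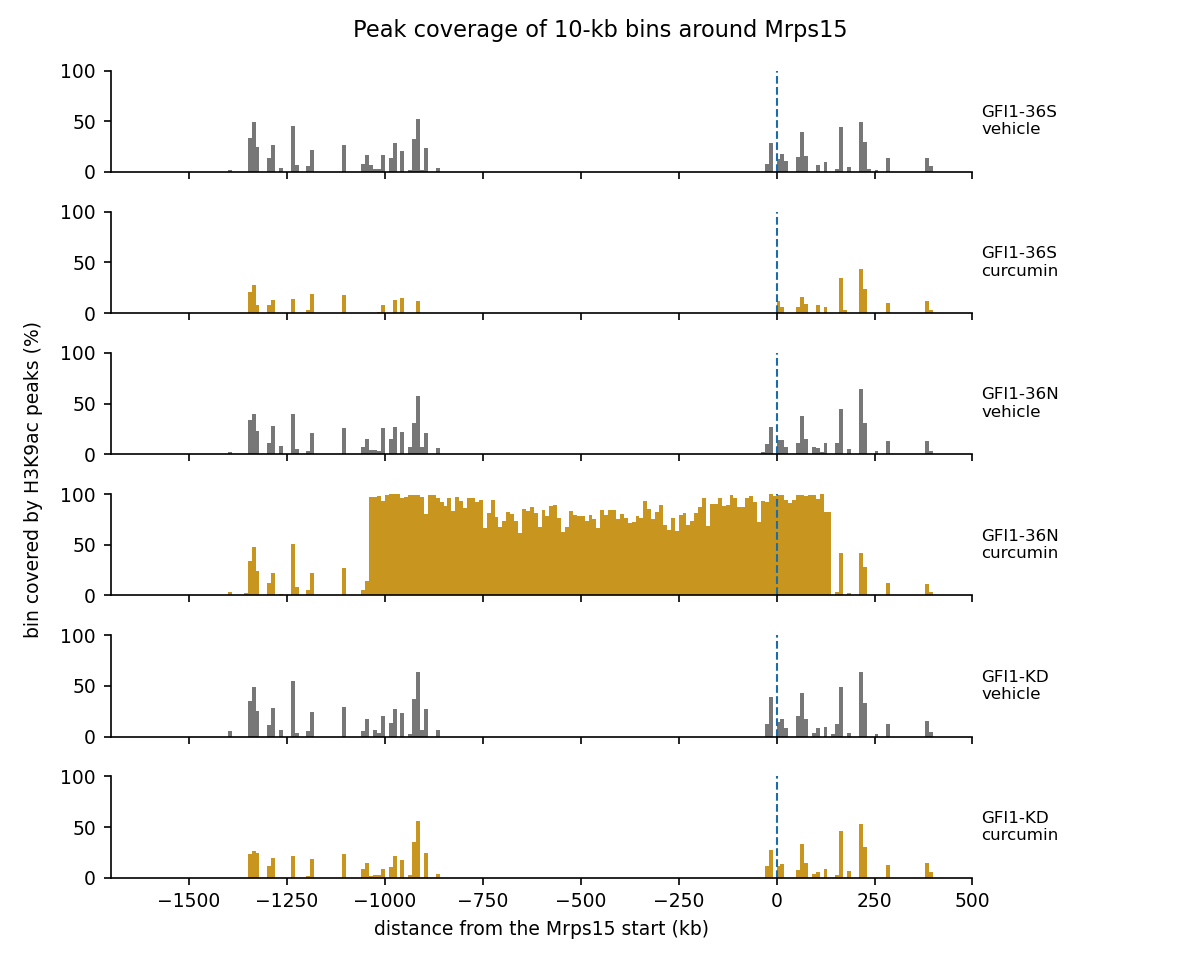
Share of each 10-kb bin covered by H3K9ac peaks (vertical axis, percent) against the distance from the Mrps15 start (horizontal axis, kb) in the 6 libraries, the dashed line marking that start. In *GFI1-36N* with curcumin a block of 1180 kb is 86.3% covered, and in the other libraries 0.937% to 3.66% of the same block.

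In *GFI1-KD* the members were again evenly divided. With curcumin 39 ranked higher (50.6%, against 37.1% of all genes) and 38 lower. The median change was 0.918 points (-1.76 to 2.51), while the median over all genes was -2.34. At least 10 points lower were 6 members (7.79%), against 20.6% of all genes, and at least 10 points higher 9 (11.7%), against 9.47%. Related lists also lay above the median of all genes. The median change was 1.93 points for the cytosolic ribosomal protein genes and -0.731 for the oxidative phosphorylation subunits. It was 0.305 for the other mitochondrial translation genes. The intervals lay apart for 2 members, both higher, and for 0 in the other direction, against 2.16% and 6.69% of genes. Between vehicle and curcumin the neutrophil markers had 10 and 8 peaks (summed rank 328 and 169), the erythroid markers 6 and 3 (169 and 63.7), and the progenitor markers 7 and 7 (121 and 201). Their part in the result was not tested.

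These 2 were Mrps36 and Mrpl36. Mrps36 (chr13:100735955-100744659, minus strand) ranked at 66.4 (55.3 to 79.0) with vehicle and 91.4 (81.7 to 97.1) with curcumin. It ranked at 78.6 and 91.3 in *GFI1-36N* and at 67.1 and 68.3 in *GFI1-36S*. Mrpl36 (chr13:73328513-73332178, plus strand) ranked at 71.6 (60.5 to 82.4) and 93.7 (85.2 to 98.0) in *GFI1-KD*, and at 91.8 to 95.7 in the other genotypes. Only the *GFI1-KD* vehicle value of Mrpl36 was below 90 in the 6 libraries.

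Mrpl2, the homologue of a bacterial protein at the peptidyl transferase centre (chr17:46646229-46650139, plus strand), ranked at 56.0 and 78.4 in *GFI1-KD*. Its intervals there, 45.4 to 67.7 and 64.9 to 89.4, overlapped. It was lower in *GFI1-36S* (81.2 and 60.9) and nearly level in *GFI1-36N* (64.5 and 66.7). On the lower side of *GFI1-KD*, Mrpl50 went from 51.0 to 33.5, also from 60.8 to 38.4 in *GFI1-36S* and from 63.3 to 57.0 in *GFI1-36N*. It shares its peak with Zfp189, whose start is 83 bases away, and the intervals overlapped.

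In the *GFI1-36S* pair the members were divided evenly around a change near 0. With curcumin 40 members ranked higher (51.9%, against 30.9% of all genes) and 37 lower. The median change was 0.177 points (-4.49 to 4.65), while the median over all genes was -6.61. Lower by at least 10 points were 19 members (24.7%), against 41.4% of all genes, and higher by as much 21 (27.3%), against 15.0%. Over the 9341 genes with a peak in all 6 libraries these shares were 40.3% and 16.9%. Related lists also lay above the median of all genes. The cytosolic ribosomal protein genes changed by a median of 3.78 points and the oxidative phosphorylation subunits by 0.563. The other mitochondrial translation genes changed by -2.45. The intervals lay apart for 1 member that was lower and 3 that were higher, against 13.4% and 5.32% of genes. The marker values given above moved with the same pair: T cell markers with a peak were 3 with vehicle and 9 with curcumin, and neutrophil markers 10 and 0. Their part in this result was not tested.

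The members with intervals apart in this pair were Mrps14, Mrpl58, Mrpl21 and Mrpl48. Mrpl58, a release factor that became part of the large subunit (chr11:115403752-115412674, plus strand), ranked at 52.9 (39.8 to 68.7) and 86.2 (72.3 to 94.8). For the *GFI1-36N* pair the ranks were 68.7 and 58.5, for *GFI1-KD* 61.0 and 71.7. Mrpl21, of the bacterial type and next to Ighmbp2 (chr19:3282901-3292837, plus strand), ranked at 57.5 (43.4 to 73.2) and 88.5 (75.4 to 95.5), and between 53.5 and 68.0 in the other libraries. For both genes the *GFI1-36S* curcumin library was the highest of the 6.

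Mrpl48, a mitochondria-specific protein of the large subunit (chr7:100545751-100608301, minus strand), ranked at 98.5 in the *GFI1-36S* vehicle library and 69.2 with curcumin, and at 90.4 to 98.5 in the other 4. The strongest peak was another one in that library. It lay at chr7:100582621-100583232, at a start site inside the gene, while in the other libraries the strongest peak covered the upstream start that is 891 bases from Rab6a. Mrpl30 went from 52.9 to 28.0 in this pair and from 53.6 to 48.0 in *GFI1-36N*, and was at 32.5 and 37.4 in *GFI1-KD*.

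Across the 3 genotypes 32.5% of the members kept a direction, against 26.4% of genes. With curcumin 17 members were higher in all 3 pairs and 8 lower in all 3, against 7.91% and 18.5% of the 11192 genes compared in all pairs. In *GFI1-36N* and *GFI1-KD*, 29 of 77 members were higher in both (22.2% of genes), 14 lower in both (24.9%), 24 higher in *GFI1-36N* and lower in *GFI1-KD* (36.9%), and 10 the reverse (16.0%). At least 10 points higher in all 3 pairs were 2 members (against 0.617% of genes), and 0 members were at least 10 points lower in all 3 (against 1.68%).

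Mrps14 and Mrpl47 were these 2 genes. Mrps14, whose bacterial homologue lies at the decoding head of the small subunit (ENSMUSG00000058267.13, chr1:160195215-160202170, plus strand), ranked at 48.9 (37.0 to 63.3) and 91.5 (81.7 to 96.8) in *GFI1-36S*. The *GFI1-36N* libraries had it at 55.4 (41.9 to 70.2) and 76.6 (61.9 to 89.4). Those of *GFI1-KD* had it at 44.9 (36.3 to 55.3) and 60.9 (47.7 to 74.4). The changes were 42.6, 21.2 and 16.0 points, and the 3 vehicle values lie below the 3 curcumin values. The intervals were apart in *GFI1-36S* alone.

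Mrpl47, a protein of the large subunit (ENSMUSG00000037531.8, chr3:32725397-32737605, minus strand), ranked at 58.9 and 78.4, 47.1 and 64.8, and 40.5 and 57.5 in *GFI1-36S*, *GFI1-36N* and *GFI1-KD*. Its changes were 19.5, 17.7 and 16.9 points, and the intervals overlapped in each pair. The curcumin value of *GFI1-KD* lies below the vehicle value of *GFI1-36S*, so the treatments overlap across genotypes. It shares its peak with Ndufb5, a complex I subunit that starts 157 bases away, and the peak cannot be assigned to either gene. With the treatments of *GFI1-36S* exchanged, neither gene would be higher in all 3 pairs.

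**Figure D5:**
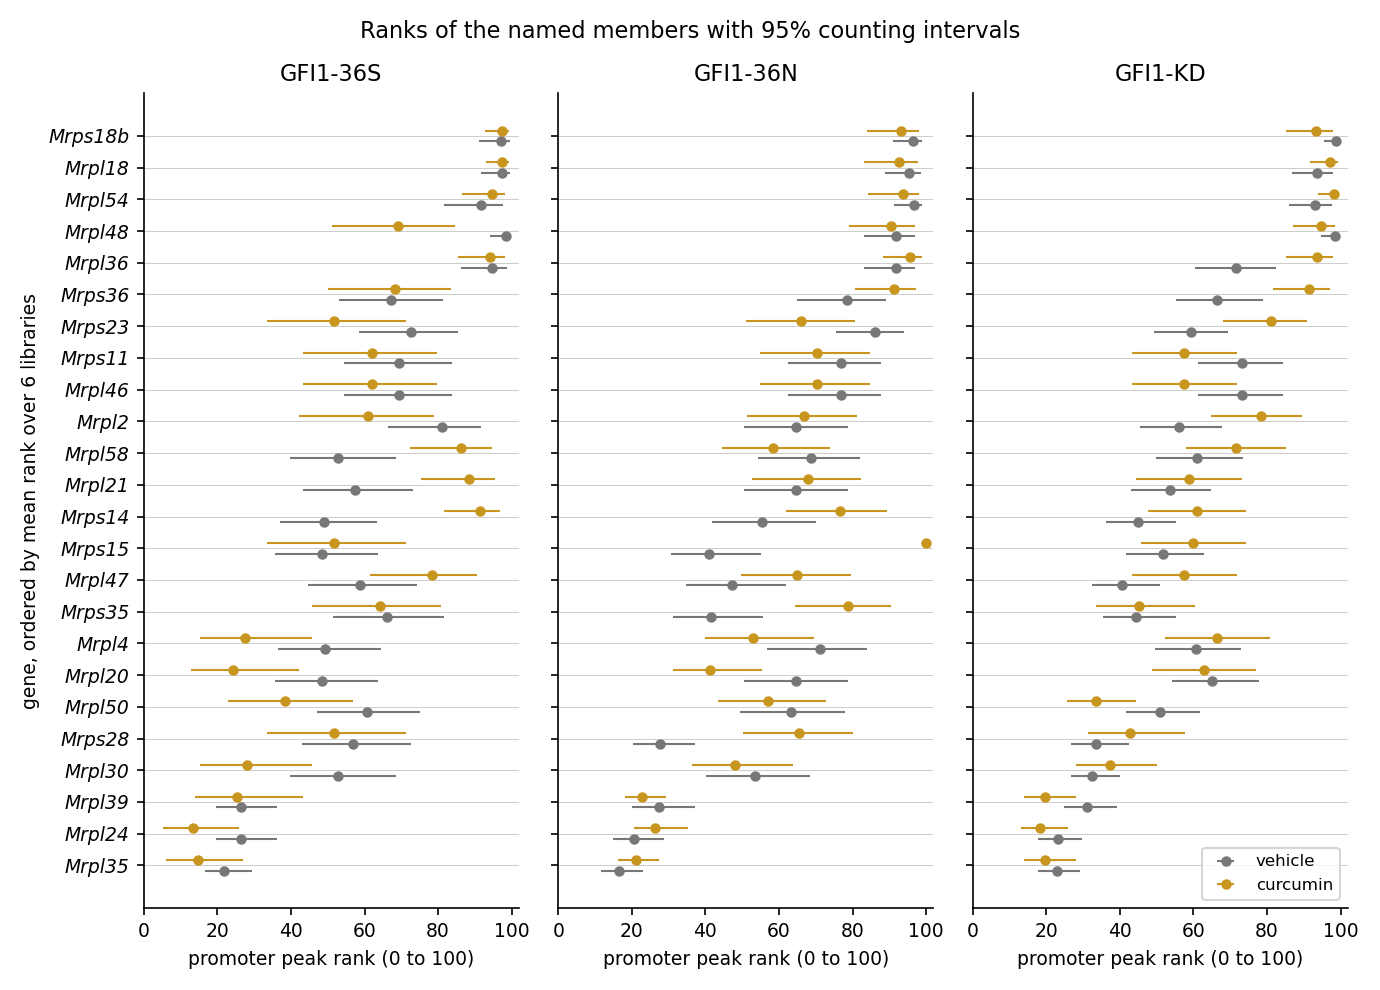
Promoter H3K9ac rank (0 to 100 within a list) of named members, vehicle in grey and curcumin in gold, 1 panel per genotype, with bars for the exact Poisson 95% interval of the count at the summit. Mrps14 and Mrpl47 are higher with curcumin in each pair, Mrps15 reaches 100 in *GFI1-36N* with curcumin, and Mrpl18 and Mrpl35 stay near 95 and 20.

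The order of the members was kept better in some pairs than in others. Spearman's rho over the 77 members was 0.918 between vehicle and curcumin in *GFI1-KD*, 0.747 in *GFI1-36N* (0.785 without Mrps15) and 0.722 in *GFI1-36S*. Over the 9341 genes it was 0.909, 0.896 and 0.751. The vehicle libraries of *GFI1-36N* and *GFI1-KD* had 0.889 over the members, and the *GFI1-36S* curcumin library 0.627 to 0.763 with the other libraries. These values are across genes, which share the depth of each list and are not replicates. The most even member with a middle rank was Mrps22, a mitochondria-specific protein of the small subunit, at 41.6 to 46.7 in the 6 libraries.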

How the data were processed

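H3K9ac ChIP-seq peak lists of 6 libraries were analysed, 1 per genotype and treatment. Input and IgG samples were not used here. Per the processing notes and methods, the authors trimmed reads with Trim Galore, aligned them to mm10 with BWA-MEM, called peaks with MACS2 (1 list per library) and removed ENCODE black-list regions. SAMtools, Picard and deepTools are named with no role. Versions, and which control was given to MACS2, are not given in the sources used here. The deposited lists hold a display score, the fold enrichment at the summit, −log10 p-values and −log10 q-values, and the summit position (the smallest deposited −log10 q was 1.31 to 1.46). Total reads per library are unknown.

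Fold enrichment was ranked within each list as described above, with overlap of at least 1 base. MACS2's relation of fold enrichment and p-value gave whole fragments for 100.0% of peaks (tolerance 0.002 on −log10 p). Sample groups came from the labels. No test was made, since each group has 1 library. Intervals of medians are distribution-free binomial intervals over the genes, which are not replicates. Members named in the text were the 3 largest rises and falls per genotype, the 4 highest and lowest mean ranks, those without a peak, those past 10 points in the same direction in all 3 genotypes and up to 5 with a divergent gene. Members and lists were chosen with earlier results of these data known. The scripts were tested on simulated data. Python 3.11.15, numpy 2.4.6, scipy 1.17.1, pandas 2.3.3 and matplotlib 3.10.9 were used. Alternatives were the promoter window, the overlap, the start site, the ranking value, stricter or equal numbers of peaks, members alone on their peak, genes with a peak in both libraries of a pair, exchanged *GFI1-36S* treatments and, added later, leaving out Mrps15. The result for 1 gene is not reported here.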

Additional observations from a re-analysis of the deposited data

Results flagged for a closer look

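A difference between genotypes was seen for 11 of 77 members (14.3%), which were at least 10 rank points higher with curcumin in a genotype and at least 10 points lower in another. The share was 18.5% of 11192 genes. With 1 library per group this difference was not tested, and for all but Mrps23 and Mrpl58 it rests on the *GFI1-36S* pair, whose treatments are uncertain. The distance between the largest and the smallest change was 43.5 points for Mrpl58, 42.8 for Mrps23, 42.7 for Mrpl2 and 40.7 for Mrps5. Mrpl58 and Mrps5 were higher in *GFI1-36S* (33.3 and 28.4) and lower in *GFI1-36N* (-10.2 and -12.3), and Mrpl58 was also higher in *GFI1-KD* (10.7). Mrps23 was lower in *GFI1-36S* and *GFI1-36N* (-20.8 and -20.0) and higher in *GFI1-KD* (22.0). The distance was 30.6 for Mrps21, 30.0 for Mrpl9, 28.1 for Mrpl53, 25.7 for Mrpl45 and 25.1 for Mrps6, which were lower in *GFI1-36S* and higher in *GFI1-36N*. It was 24.3 for Mrps25, higher in *GFI1-36S* and lower in *GFI1-KD*, and 22.8 for Mrps18a, higher in *GFI1-36S* and lower in *GFI1-36N*.

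The stretch of 1180 kb around Mrps15 held 586 peaks, at promoters and elsewhere, in *GFI1-36N* with curcumin, 1.19% of the peaks of that library, and 15 to 45 in the other libraries.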

How the results depend on the processing

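The main limits are 1 library per group, an uncertain *GFI1-36S* treatment, mixed cells and the counting error of the summits. In the *GFI1-36N* pair, zygosity by the list names cannot be told apart from treatment. The median change ranged from 2.98 to 5.39 points in *GFI1-36N* (all genes 0.75 to 2.03), from -0.412 to 3.64 in *GFI1-36S* and from -0.407 to 1.85 in *GFI1-KD*, so the sign in the last 2 is not fixed. The share of members at least 10 points higher ranged from 35.1% to 43.2%, 24.7% to 33.8% and 11.7% to 15.9% in these genotypes, and at least 10 points lower from 7.79% to 14.3%, 18.2% to 27.3% and 4.55% to 9.09%. Median ranks ranged from 46.0 to 60.6, and members with a peak from 97.4% to 98.7%. With the *GFI1-36S* treatments exchanged the median change was -0.177 and that of all genes 6.61. At least 10 points higher were then 24.7% of members, against 41.4% of all genes, and at least 10 points lower 27.3%, against 15.0%. Leaving out Mrps15 was chosen after seeing the data and gave 3.87 in *GFI1-36N*. No replicate block was fitted, since the labels give no replicate numbers, and a fit over the 3 pairs with genotype as the block was not made.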

Other observations

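Of the 55 other genes of mitochondrial translation, 54 could be compared in each pair. In *GFI1-36N* 35 (64.8%) ranked higher with curcumin, against 60.1% of all genes, and 19 lower, and 20 (37.0%) were at least 10 points higher, against 19.3% of all genes. The 17 mitochondrial tRNA synthetases had a median change of 7.56 points (-1.0 to 18.4), the 13 translation factors 8.24 (-2.80 to 15.5) and the 19 assembly factors 3.52 (-2.98 to 9.88).

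Mtg1, a GTPase of large subunit assembly, ranked at 49.6 and 81.0 in *GFI1-36N* with vehicle and curcumin, 56.8 and 73.5 in *GFI1-36S* and 46.7 and 50.5 in *GFI1-KD*. Lrpprc, which stabilises mitochondrial messages, was lower in *GFI1-36N* (87.9 and 62.2) and nearly level in *GFI1-36S* (66.7 and 68.8) and *GFI1-KD* (66.8 and 64.1). Mars2, the synthetase for methionine, ranked at 43.5 and 81.4 in *GFI1-KD*. In *GFI1-36S* the ends were Ptcd3, a small subunit protein with another name, at 33.2 and 66.3, and Nsun4, an rRNA methyltransferase of assembly, at 54.2 and 29.7.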
